A study of Mus musculus with 23 samples.

Results

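Macroautophagy encloses cytoplasm in a double membrane and delivers it to the lysosome, and mitophagy is the form of it that takes up mitochondria. 9 genes of these pathways were followed in the brown adipose tissue (BAT) of mice, out of 14651 genes in the table of normalized counts. They were chosen by symbol and by role: Ulk1 and Becn1, whose products start an autophagosome, Map1lc3a, Map1lc3b and Gabarapl1, whose products are attached to its membrane, Sqstm1, whose product p62 ties ubiquitinated cargo to that membrane, and Bnip3, Bnip3l and Pink1, which act in mitophagy. All 9 were measured in every mouse. In brown fat, autophagy and mitophagy are known for clearing mitochondria when thermogenic demand falls and for taking part in lipid and protein turnover. Because LC3-family proteins and p62 are themselves degraded in the lysosome, a transcript level is not a measure of autophagic flux.

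RNA from the BAT of 23 male C57BL/6 mice, 8 to 12 weeks old, was sequenced to ask what loss of the mitochondrial calcium uniporter Mcu and exposure to cold do to the transcriptome. All mice were homozygous for a floxed Mcu allele (Mcu fl/fl), with loxP sites around exon 2. Control mice carried the floxed allele alone, and BAT-Mcu-KO mice (Mcu fl/fl with Ucp1-Cre, here KO mice) also carried a transgene in which the Ucp1 promoter, active in brown adipocytes, drives Cre. The groups were 6 control mice at room temperature (RT), 5 control mice at 4°C, 6 KO mice at RT and 6 KO mice at 4°C, and the cold lasted 6 h. By the protocol, mice at 4°C were housed singly and had no food unless it was stated otherwise, and whether mice at RT kept their food over these hours is not given in the sources used here. Cold and removal of food therefore cannot be told apart, and lack of food is a known stimulus of autophagy.

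Counted reads per mouse ranged from 7129271 to 21006347, and the value of any of the 9 genes in a mouse rested on 126 to 15153 reads. Mcu fell by 1.66 on the log2 scale in KO mice at RT and by 1.61 at 4°C, with adjusted p = 0.001 and 0.00367 (limma, Benjamini-Hochberg over all genes, as for every adjusted p below). Its normalized counts did not overlap between the genotypes at RT (81.4 to 136 in control, 15.2 to 42.4 in KO). All 8 brown adipocyte markers were detected in every mouse, and Ucp1 rose by 1.37 on the log2 scale with cold in control mice and by 1.47 in KO mice. The summed normalized count of 12 skeletal muscle markers ran from 24.9 to 63697 between mice, and 3 control mice at 4°C, 3 KO mice at RT and 2 at 4°C were above 10000. Of the 12, 10 were at 0 in at least 1 mouse. Of 9 macrophage markers, none at 0 in any mouse, 4 rose with cold in control mice (summed normalized count 908 to 1307 at RT and 1164 to 1776 at 4°C) and 6 in KO mice (701 to 1284 and 1448 to 1874). Of 7 endothelial markers, none at 0, 3 rose and 2 fell in control (3649.9 to 5117 and 6132.5 to 10403) and 3 rose and 1 fell in KO mice (3851 to 5345 and 5703 to 9601). The part of macrophages and vessels in the results below was not tested. In bulk tissue, fewer cells of a type and less RNA per cell cannot be told apart.

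The stretches upstream of Sqstm1 and Gabarapl1 are shown because these genes rose with cold in both genotypes, and that of Bnip3 because its values at 4°C depended most on the mice included. They were taken from RefSeq (build GRCm38.p6), are written 5′ to 3′ on the strand of the gene, and end at the base before the start of the gene in GENCODE M21. The genes themselves span chr11:50199366-50210827 (Sqstm1), chr6:129533160-129542346 (Gabarapl1) and chr7:138890836-138909519 (Bnip3). Capitals mark the GC box GGGCGG on either strand and, in Bnip3, also the palindrome CACGTG, the core of the element bound by TFEB and other E-box factors.
Sqstm1 (chr11:50210828-50211070, minus strand): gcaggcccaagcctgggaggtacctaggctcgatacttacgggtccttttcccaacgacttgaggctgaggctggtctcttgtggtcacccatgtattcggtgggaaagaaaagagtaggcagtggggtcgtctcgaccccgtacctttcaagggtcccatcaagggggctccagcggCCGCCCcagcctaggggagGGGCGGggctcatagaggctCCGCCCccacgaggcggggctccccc
Gabarapl1 (chr6:129532942-129533159, plus strand): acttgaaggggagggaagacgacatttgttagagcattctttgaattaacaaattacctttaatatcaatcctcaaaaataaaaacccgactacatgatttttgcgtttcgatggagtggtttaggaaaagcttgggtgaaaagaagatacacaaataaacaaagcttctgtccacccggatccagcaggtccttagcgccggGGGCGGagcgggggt
Bnip3 (chr7:138909520-138909756, minus strand): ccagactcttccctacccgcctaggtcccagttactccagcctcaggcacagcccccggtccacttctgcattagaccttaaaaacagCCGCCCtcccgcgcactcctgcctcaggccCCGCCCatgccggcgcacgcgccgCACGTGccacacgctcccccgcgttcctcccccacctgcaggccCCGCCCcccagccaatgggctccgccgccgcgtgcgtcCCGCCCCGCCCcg

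RefSeq windows from 250 bases before to 50 bases after the start were at hand for 6 of the 9 genes, Sqstm1, Map1lc3b, Gabarapl1, Ulk1, Bnip3 and Pink1, and 6 motifs were searched in them on both strands. The GC box was in all 6 windows and in 35.66% of the 32851 windows of all genes, with 3 copies at Sqstm1, 2 at Gabarapl1 (1 of them inside the stretch shown) and 6 at Bnip3 (5 inside). CACGTG was found at Bnip3 alone among the 6 and in 7.15% of all windows. TGACNNNGC, the core of the antioxidant response element, was found at Map1lc3b alone and in 12.39% of all windows. The cAMP response element TGACGTCA (1.79% of all windows), the C/EBP-ATF element TGATGNAA (3.97%) and the FOXO site GTAAACA (3.65%) had no match in these 6 windows. The stretch shown for Gabarapl1 is poor in G and C (43.6%), against 64.2% for Sqstm1 and 72.6% for Bnip3. These matches describe letters in the window only.

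At RT the 9 transcripts spanned a wide range of levels, compared here as mean normalized count per kb of annotated exons in control mice. Bnip3 (1468 ± 121 per kb, SD, n = 6), Sqstm1 (1418 ± 167), Map1lc3a (1262 ± 245) and Gabarapl1 (1026 ± 116) formed the upper part of the order, and each overlapped the next in range between mice. Map1lc3b followed at 443 ± 46.4 per kb, apart from its neighbours on both sides. Pink1 (288 ± 47.1 per kb) and Bnip3l (279.7 ± 14.1) overlapped, as did Becn1 (58.7 ± 2.72) and Ulk1 (48.2 ± 6.82), the lowest of the 9. These lengths join the exons of all annotated transcripts. They include bases that also lie in exons of other genes (43.9% for Becn1), where reads cannot be assigned by strand. The levels per kb of such genes are therefore uncertain. With the length of the longest principal transcript of each gene, Sqstm1 came first at 2336 ± 276 per kb, ahead of Bnip3 at 1893 ± 156. Map1lc3b then stood at 1316 ± 138, between Map1lc3a and Gabarapl1. By this length Becn1 (90.17 to 101.2 per kb) lay above Ulk1 (50.04 to 72.5) without overlap. At 4°C Gabarapl1 moved up from the fourth place by exon length, or the fifth by principal transcript, to the first or second. By exon length Sqstm1 (2723 ± 453 per kb) and Gabarapl1 (2199 ± 316) then led in control mice, and Gabarapl1 (2598 ± 367) and Sqstm1 (2589 ± 311) overlapped at the top in KO mice. By principal transcript Sqstm1 led in all 4 groups, and in KO mice at 4°C its range (3413 to 4889 per kb) lay above that of Gabarapl1 (2467.5 to 3297).

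The first question was which of the 9 genes respond to 6 h at 4°C. Sqstm1 and Gabarapl1 rose in both genotypes, Gabarapl1 2.14-fold in control and 2.34-fold in KO mice and Sqstm1 1.91-fold and 1.64-fold. Bnip3 rose 1.31-fold in KO mice with an adjusted p close to the threshold of 0.05, and 19 of 33 alternatives did not call it. None of the 9 passed the test as lower, although 5 did in control and 1 in KO mice when libraries were scaled to their 75th percentile, under which the higher share of all cold calls was 38.2% in place of 48.5% in control and 44.1% in place of 49.4% in KO mice. In control mice 2 of 9 were called higher, where 22.3% of all genes were higher and 23.7% lower. In KO mice 3 of 9 were called higher, where 21.4% of all genes were higher and 21.9% lower. These shares lie near the background, so the count is no result about the 9 genes as a group, and their median log2 fold change was -0.08 in control and 0.09 in KO mice, against -0.02 over all genes in both.

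**Figure D1:**
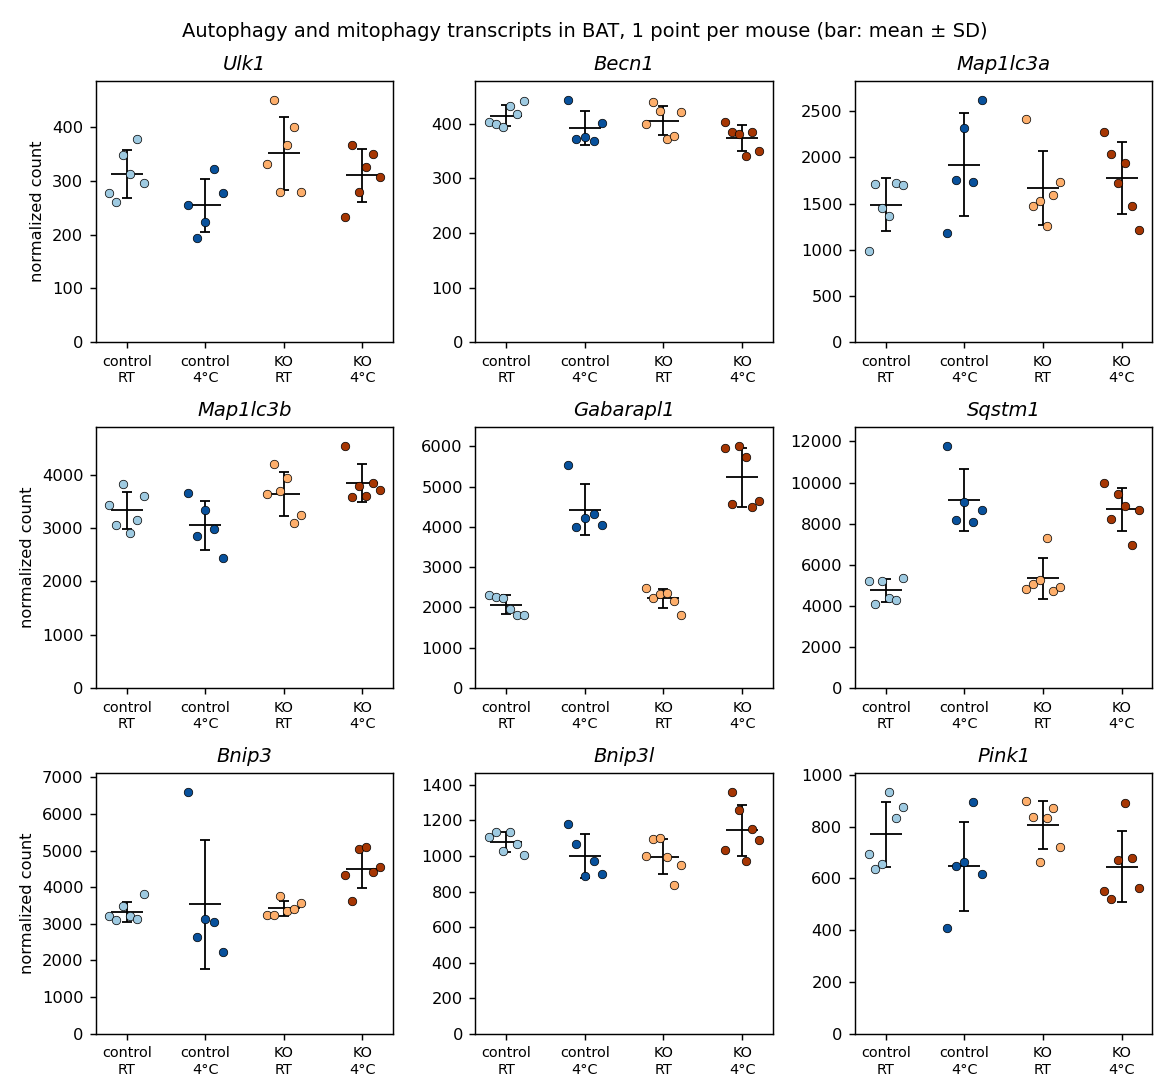
Normalized counts of the 9 genes in each mouse (1 point per mouse, linear axes from 0, bars for mean ± SD) in control and KO mice at RT and 4°C. Gabarapl1 at 4°C lies above every RT mouse in both genotypes, and 1 control mouse at 4°C stands apart at 6600 for Bnip3.

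Ulk1 encodes the kinase at the head of the initiation complex. Its normalized count in control mice at RT ran from 261 over a median of 305 to 378, and at 4°C the 5 mice had 194, 224, 255, 277 and 322. In KO mice it ran from 279.9 over 349.8 to 450.0 at RT and from 233 over 317 to 367 at 4°C. The groups overlapped in both genotypes, although 3 of the 5 control mice at 4°C were below every control mouse at RT. The log2 fold change with cold was -0.31 ± 0.15 (SE) in control (95% confidence interval -0.61 to -0.01, adjusted p = 0.0891) and -0.17 ± 0.14 in KO mice (-0.46 to 0.11, adjusted p = 0.339). Without control 4°C replicate 4 the value in control was -0.40 with adjusted p = 0.0354, and with libraries scaled to their 75th percentile it was -0.41 with adjusted p = 0.0231.

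Becn1 encodes Beclin 1, a subunit of the class III phosphatidylinositol 3-kinase complex, and its coefficient of variation between mice of a group was 4.6% to 8.0%. Control mice at RT had 394 to 442 (median 410.0), and at 4°C they had 369, 372, 376, 401 and 443. KO mice had 373 to 440.4 (median 411) at RT and 341 to 403 (median 383) at 4°C. The ranges overlapped throughout. The log2 fold change with cold was -0.08 ± 0.08 in control (-0.24 to 0.08, adjusted p = 0.403) and -0.12 ± 0.07 in KO mice (-0.27 to 0.04, adjusted p = 0.218), so neither interval reaches above 0.08. Of the exon bases of Becn1, 43.9% also lie in exons of Cntd1 on the other strand, and since reads were counted without regard to strand, reads there cannot be assigned by strand.

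Gabarapl1, a GABARAP-subfamily protein of the autophagosome membrane, rose most of the 9 genes in both genotypes. In control mice its normalized count ran from 1808 over 2097 to 2317 at RT, and the 5 mice at 4°C had 4003, 4052, 4225, 4309 and 5542. In KO mice it ran from 1804 over 2275 to 2482 at RT and from 4491 over 5189 to 6001 at 4°C. In each genotype the lowest cold mouse exceeded the highest RT mouse, with 5 of 5 control and 6 of 6 KO mice above. The log2 fold change was 1.10 ± 0.11 in control (0.88 to 1.32, adjusted p = 6.7e-09) and 1.23 ± 0.10 in KO mice (1.02 to 1.44, adjusted p = 4.95e-10). In every alternative fit and with any mouse left out, the log2 value stayed between 0.99 and 1.27 and past the threshold. Of its exon bases 28.3% overlap 1700101I11Rik on the other strand, whose own mean normalized count was 3.88 at RT and 12.3 at 4°C in control mice.

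The other LC3-like genes of the list did not move in this way. Map1lc3a and Map1lc3b encode LC3A and LC3B, LC3B being the protein most often blotted to follow autophagosomes. Map1lc3a in control mice ran from 989 over 1577 to 1719.9 at RT, and at 4°C the mice had 1185, 1736, 1759, 2317 and 2618. 4 of the 5 were above all control mice at RT, while the lowest was inside their range. By limma the log2 fold change was 0.34 ± 0.19 (-0.05 to 0.73, adjusted p = 0.146), and without control 4°C replicate 1, which held that lowest value, it was 0.50 with adjusted p = 0.0274. In KO mice Map1lc3a spanned 1257 to 2415 at RT against 1213 to 2276 in the cold, a log2 fold change of 0.09 ± 0.18 (-0.28 to 0.46, adjusted p = 0.714). Its spread between mice was wide, with a coefficient of variation of 19.4% to 29.0% in the 4 groups.

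Map1lc3b in control mice ran from 2917 over 3293 to 3825 at RT, and at 4°C the 5 mice had 2443, 2855, 2982, 3332 and 3653. In KO mice it ran from 3098 over 3676 to 4197 at RT and from 3577 over 3761 to 4539.5 at 4°C. Both pairs of groups overlapped. The log2 fold change with cold was -0.13 ± 0.10 in control (-0.34 to 0.07, adjusted p = 0.29) and 0.08 ± 0.10 in KO mice (-0.11 to 0.28, adjusted p = 0.515). Both upper bounds lie well under the lower bounds for Gabarapl1. 2 further genes of the GABARAP subfamily were looked at after their values were seen: Gabarap rose by 0.30 on the log2 scale in control (adjusted p = 0.00118) and 0.40 in KO mice (adjusted p = 3.03e-05), and Gabarapl2 stood at 0.19 (adjusted p = 0.142) and 0.29 (adjusted p = 0.0247).

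**Figure D2:**
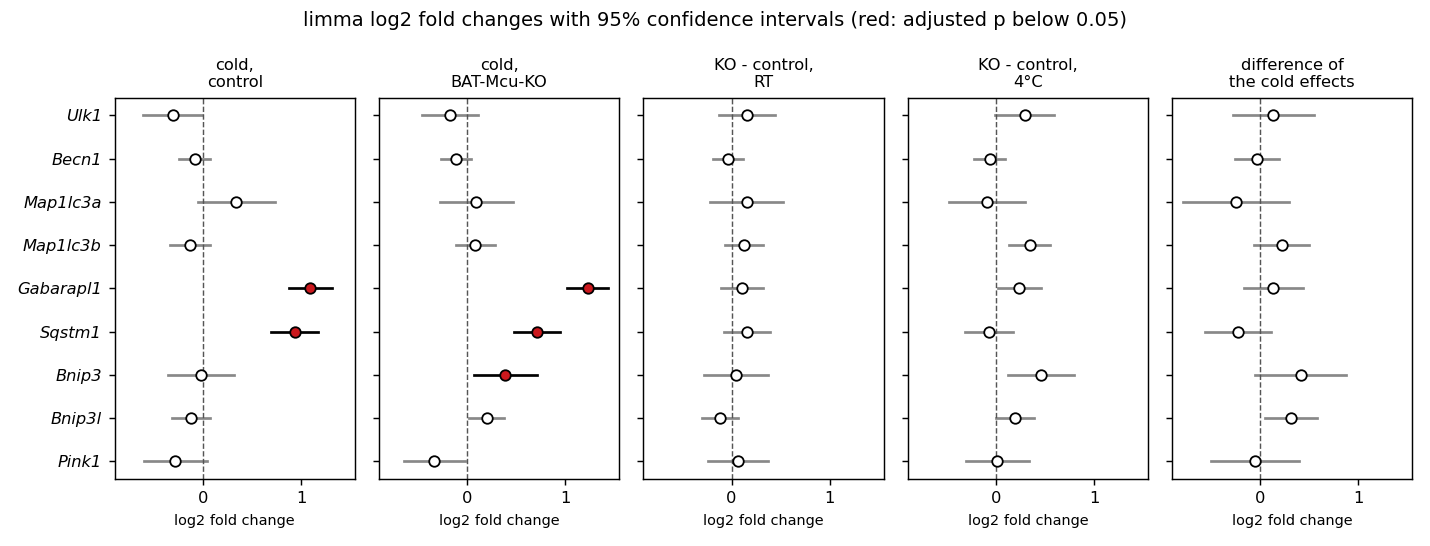
Log2 fold change of each gene (points, with 95% confidence intervals) by cold in each genotype, by genotype at each temperature and for the difference between the cold effects, with calls at adjusted p under 0.05 in red. Sqstm1 and Gabarapl1 are called in both cold comparisons, Bnip3 in KO mice, and none of the 9 by genotype or in the difference.

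Sqstm1, the cargo receptor p62 and also a scaffold in signalling to NRF2 and mTORC1, was the other gene that rose in both genotypes. In control mice its normalized count ran from 4108 over 4794 to 5369 at RT, and the mice at 4°C had 8098, 8151, 8641, 9027 and 11768. These groups did not overlap. In KO mice it ran from 4701 over 4973 to 7309.6 at RT and from 6952 over 8766 to 9959 at 4°C, and the overlap came from the highest RT mouse and the lowest mouse at 4°C. On the log2 scale the change with cold was 0.94 ± 0.12 in control (0.69 to 1.18, adjusted p = 4.57e-07) and 0.71 ± 0.11 in KO mice (0.48 to 0.94, adjusted p = 1.21e-05). It stayed past the threshold in every alternative fit and with any mouse left out. Of its exon bases 17.3% overlap Mrnip on the other strand.

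Bnip3 and Bnip3l, the latter also called NIX, encode receptors in the outer mitochondrial membrane that bind LC3-family proteins, and both are known targets of hypoxia-inducible factors. Bnip3 was even between mice at RT, from 3117 over 3206 to 3807 in control and from 3236 over 3375.5 to 3747 in KO mice. At 4°C the 5 control mice had 2239.6, 2639, 3040.5, 3137.5 and 6600.3, of which 3 lay below and 1 far above all control mice at RT. The log2 fold change in control was -0.02 ± 0.16 (-0.36 to 0.32, adjusted p = 0.926). No direction can be given, since the value turned with the mice included and with the tool. Without control 4°C replicate 1 it was -0.27 with adjusted p = 0.0251, and the other 4 mice had a mean of 2764 ± 411 (SD). Without the muscle-rich mice, which left replicate 1 and 1 other control mouse at 4°C, it was 0.46 with adjusted p = 0.0589, while edgeR gave 0.08 and DESeq2 0.09 over all mice (adjusted p = 0.741 and 0.72).

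In KO mice at 4°C Bnip3 ran from 3636 over 4486 to 5092, and 5 of 6 mice were above all KO mice at RT. The log2 fold change was 0.39 ± 0.16 (0.07 to 0.71, adjusted p = 0.046). The call was not stable and was lost in 19 of 33 alternatives. Leaving out single mice gave adjusted p between 0.000834 and 0.0934, edgeR on the recovered reads gave 0.0524 and scaling to the 75th percentile 0.0822. Leaving out control 4°C replicate 1, which adds to the shared estimate of the spread, gave the lowest of these. Of the exon bases of Bnip3, 22.3% overlap the gene Gm45507 on the other strand.

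Bnip3l in control mice ran from 1008 over 1087.5 to 1135 at RT, and the mice at 4°C had 886, 898, 973, 1065 and 1177. In KO mice it ran from 839 over 996 to 1099 at RT and from 972 over 1120.2 to 1359.9 at 4°C. The groups overlapped, with 3 of 5 control mice at 4°C below and 3 of 6 KO mice at 4°C above their RT group. By limma the log2 fold change was -0.12 ± 0.09 in control (-0.31 to 0.07, adjusted p = 0.32) and 0.20 ± 0.09 in KO mice (0.01 to 0.38, adjusted p = 0.077). The latter was 0.24 with adjusted p = 0.0345 without KO 4°C replicate 4.

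Pink1 encodes the kinase that gathers on depolarized mitochondria and recruits Parkin. In control mice it ran from 636 over 763 to 933.5 at RT, and the mice at 4°C had 409, 618, 648, 663 and 895. In KO mice it ran from 661 over 836 to 900.0 at RT and from 521 over 617 to 889 at 4°C. The lowest value of each genotype was at 4°C, and the ranges overlapped. On the log2 scale the change with cold was -0.28 ± 0.16 in control (-0.60 to 0.04, adjusted p = 0.147) and -0.33 ± 0.15 in KO mice (-0.64 to -0.03, adjusted p = 0.0732). Of 33 alternatives, 3 called Pink1 lower in control mice and 6 in KO mice, and neither edgeR nor DESeq2 did. Over the alternatives adjusted p reached 0.494 in control and 0.177 in KO mice. In control mice adjusted p was 0.0335 without control 4°C replicate 4, 0.034 without the muscle-rich mice (log2 fold change -0.55) and 0.0461 with scaling to the 75th percentile. For KO mice it was 0.0418 with that scaling, 0.0366 when the control mice were left out of the fit and 0.0361 with the replicate number as a block. It was 0.0205 without KO 4°C replicate 4, 0.0482 without KO RT replicate 3 and 0.0368 without control 4°C replicate 1.

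The second question was whether these transcripts differ between the genotypes. KO mice combined loss of Mcu in BAT with the Ucp1-Cre transgene, which control mice did not carry. Loss of Mcu and the transgene therefore cannot be told apart here. At RT 0 of 9 passed limma, 0 of 9 had an unadjusted p under 0.05, and edgeR and DESeq2 called 0 as well, where 0.0478% of all genes were called. The log2 differences between KO and control mice ran from -0.12 ± 0.09 for Bnip3l to 0.16 ± 0.14 for Ulk1. Becn1 had the narrowest interval (-0.18 to 0.12) and Map1lc3a the widest (-0.22 to 0.53), so for Map1lc3a a difference as large as 0.53 is not outside what these mice allow.

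At 4°C limma, edgeR and DESeq2 again called 0 of 9, where limma called 0.0751% of all genes by adjusted p. An unadjusted p under 0.05 was held by 4 of 9, all with higher values in KO mice. Of the 120 other pathway genes described below, 13 had one. The share of all genes at this unadjusted threshold was not counted, so the 4 are no result about the 9 genes as a group. Map1lc3b had a log2 difference of 0.34 ± 0.10 (0.14 to 0.55, adjusted p = 0.367), and 4 of 6 KO mice exceeded the highest control mouse. Gabarapl1 differed by 0.24 ± 0.11 (0.02 to 0.46, adjusted p = 0.677) and Bnip3l by 0.19 ± 0.09 (0.00 to 0.39, adjusted p = 0.708). Sqstm1 differed by -0.07 ± 0.12 (-0.31 to 0.18, adjusted p = 0.944). For Pink1 the difference was 0.02 ± 0.16 (-0.31 to 0.34, adjusted p = 0.996).

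Bnip3 at 4°C had a log2 difference of 0.46 ± 0.16 between KO and control mice (0.12 to 0.79, adjusted p = 0.562), and the comparison again turned on control 4°C replicate 1. Without this mouse the 4 control mice (2240 to 3138) lay below all 6 KO mice (3636 to 5092), and the difference was 0.71 with adjusted p = 0.00121. Replicate 1 was the shallowest library of all (7129271 reads). It had the highest value of its group for 6 of the 9 genes and the lowest for 2, and its muscle marker sum was 36.4. The 3 control mice at 4°C with muscle marker sums over 10000 had the Bnip3 counts 2240 to 3041 and the other 2 had 3137.5 and 6600.3. In KO mice at 4°C the muscle-rich mice had 3636 to 4326 and the others 4421 to 5092. KO mice at RT went the other way with overlap, with 3339 to 3747 in muscle-rich mice and 3236 to 3412 in the others. Over all 23 mice, as deviations from the group means, Bnip3 had r = -0.50 with the log2 muscle marker sum, and the other 8 genes lay between -0.22 and 0.22. Without replicate 1 the r of Bnip3 was -0.36 and that of Bnip3l was 0.46. With that sum as a covariate the difference at 4°C was 0.48 (adjusted p = 0.339), and without the 8 muscle-rich mice it was 0.07 (adjusted p = 0.981) with 2 control mice left.

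**Figure D3:**
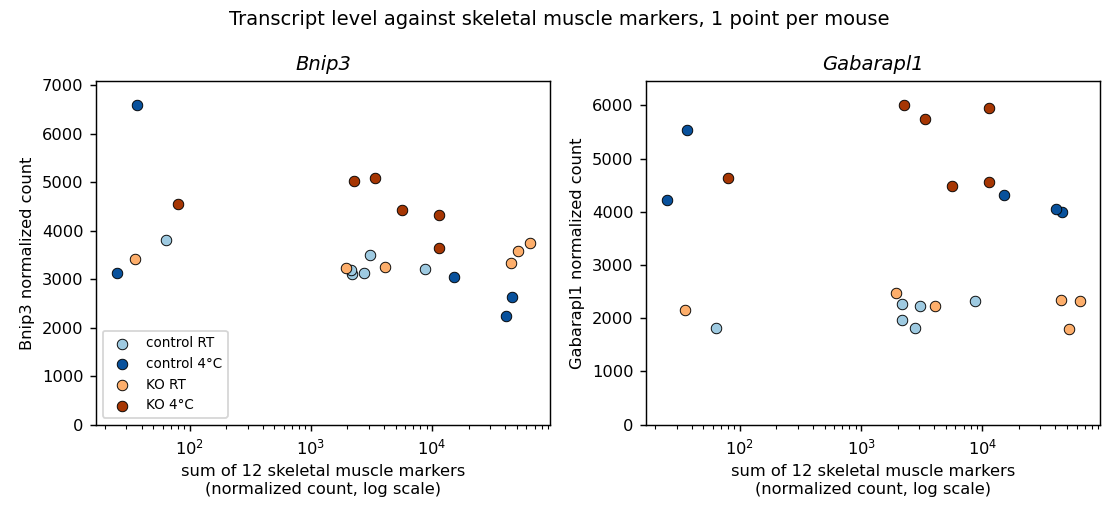
Normalized counts of Bnip3 and Gabarapl1 in each mouse against the summed normalized count of 12 skeletal muscle markers (log scale), coloured by group. Among control mice at 4°C the 3 muscle-rich mice have the lowest Bnip3 counts, up to 3041. Among KO mice at RT the muscle-rich mice have 3339 to 3747 and the others 3236 to 3412. Gabarapl1 at 4°C is above RT at every muscle level.

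The cold effects were also compared between the genotypes. Of the 9 genes 0 passed limma, edgeR or DESeq2 for this difference, and limma called 0% of all genes by adjusted p. The share of all genes at an unadjusted p under 0.05 was not counted, and 1 of the 9 was under it. That gene was Bnip3l, with cold effects that differed by 0.31 ± 0.13 (0.05 to 0.58, adjusted p = 0.801). Bnip3 had the largest estimate, 0.41 ± 0.23 (-0.06 to 0.88, adjusted p = 0.85). For Gabarapl1 the cold effects differed by 0.13 ± 0.15 (-0.17 to 0.44) and for Sqstm1 by -0.22 ± 0.16 (-0.56 to 0.11), so for these genes, which rose in both genotypes, a difference as large as 0.44 and -0.56 remains inside the intervals.

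Other genes of the pathway were read from 5 lists, of which 120 of 121 genes were measured. With cold, 63 of the 120 rose and 21 fell in control mice, and 60 rose and 18 fell in KO mice, with a median log2 fold change of 0.33 and 0.29. In both genotypes 56 were called higher and 14 lower, and none in opposite directions. Over all genes, 22.3% were higher and 23.7% lower in control mice, and 21.4% and 21.9% in KO mice. The 5 lists were chosen with earlier results of these data known, and the shares over all genes include genes with low counts. Whether the lists exceed these shares was therefore not tested.

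**Figure D4:**
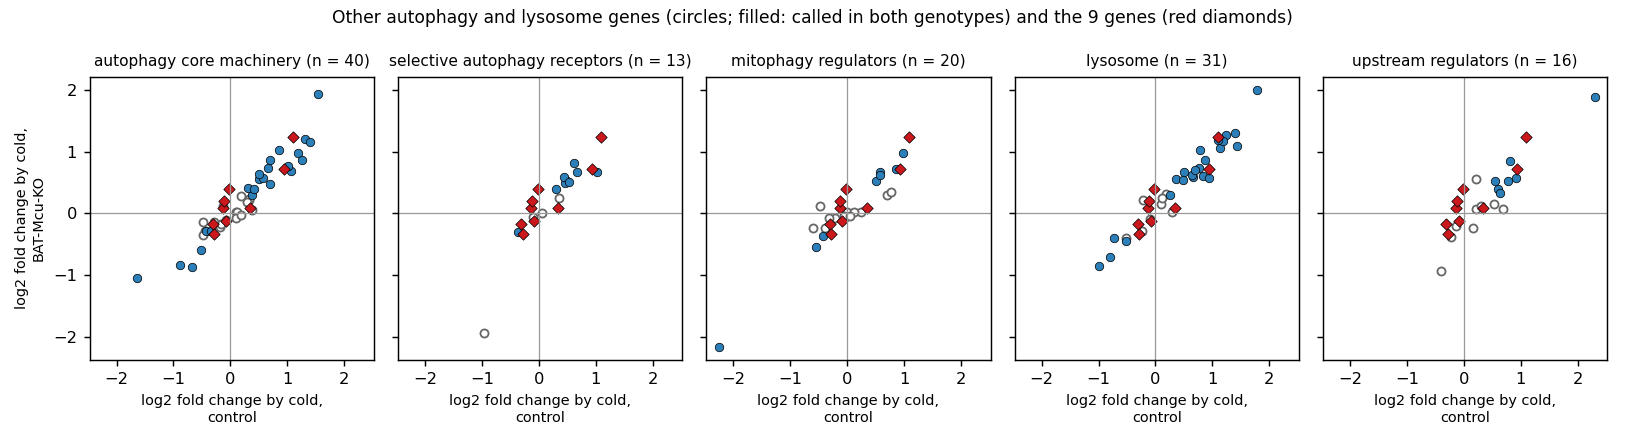
Log2 fold change by cold in control mice (x axis) and in KO mice (y axis) for the genes of 5 pathway lists (circles, filled where called in both genotypes), with the 9 genes as red diamonds in each panel. Over the 5 panels 56 filled circles lie in the upper right and 14 in the lower left, and the lysosome panel holds 19 of the former.

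Of 40 genes of the core machinery, 20 rose and 10 fell in control mice and 18 rose and 6 fell in KO mice. Among all genes 22.3% rose and 23.7% fell in control mice, and 21.4% and 21.9% in KO mice. The falls lie near or under these shares and are no result about this list. Atg101 and Atg13, subunits of the kinase complex that holds Ulk1, rose by 1.55 and 1.31 on the log2 scale in control mice and by 1.92 and 1.21 in KO mice (adjusted p from 3.39e-12 to 3e-10). The remaining scaffold of that complex, Rb1cc1, looked at after its values were seen, rose by 1.19 and 0.98. For Ulk1 the corresponding values were -0.31 and -0.17, neither called. Tecpr1, which joins autophagosomes to lysosomes, rose by 1.01 and 0.77. Pik3c3, the lipid kinase that Beclin 1 binds, fell by 0.43 and 0.28, and Atg10, the enzyme that links ATG12 to ATG5, fell by 0.89 and 0.84. Atg9b fell by 1.64 and 1.05 at low counts, with a mean normalized count of 59.4 in control mice at RT and 21.1 at 4°C.

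Of 13 further receptors for selective autophagy, 8 rose and 1 fell in control and 8 rose and 2 fell in KO mice. The shares over all genes were 22.3% higher and 23.7% lower in control mice, and 21.4% and 21.9% in KO mice. Sqstm1 was thus not the only receptor gene that rose. Tollip rose by 1.02 and 0.66, Tax1bp1 by 0.67 in both genotypes, and Nbr1, the receptor closest to p62 in build, by 0.63 and 0.81. Calcoco1, a receptor for the endoplasmic reticulum, fell by 0.36 and 0.30.

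Of 20 regulators of mitophagy, 7 rose and 5 fell in control and 5 rose and 3 fell in KO mice, with medians of 0.03 and 0.02. Of all genes 22.3% rose and 23.7% fell in control mice, and 21.4% and 21.9% in KO mice, so these counts are no result about the regulators as a group. Park2, which encodes the ubiquitin ligase Parkin that acts with PINK1, fell by 0.55 in both genotypes (adjusted p = 0.0101 and 0.00828). Nlrx1, a mitochondrial member of the NLR family, had the steepest fall, by 2.25 and 2.16. Its mean normalized count was 139.6 ± 20.3 (SD) at RT and 28.8 ± 5.72 at 4°C in control mice. Fundc2, a relative of the receptor FUNDC1, fell by 0.42 and 0.37. The deubiquitinase gene Usp8 rose by 0.99 and 0.97, the kinase gene Tbk1 by 0.87 and 0.72, and the mitochondrial ubiquitin ligase gene Mul1 by 0.58 and 0.67.

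Of 31 lysosomal genes, 19 rose and 5 fell in control and 21 rose and 4 fell in KO mice, with the medians 0.50 and 0.57. Among all genes 22.3% rose and 23.7% fell in control mice, and 21.4% and 21.9% in KO mice. Scarb2, a lysosomal membrane protein that carries glucocerebrosidase, rose by 1.18 and 1.17, and the proton pump subunits Atp6v1h and Atp6v1e1 rose by 1.40 and 1.29 and by 1.09 and 1.19. Npc1, which exports cholesterol, fell by 0.80 and 0.70, the acid lipase Lipa by 0.73 and 0.40, and the galactosidase Glb1 by 0.99 and 0.86.

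Of 16 upstream regulators, 9 rose and 0 fell in control and 8 rose and 3 fell in KO mice. The shares over all genes were again 22.3% higher and 23.7% lower in control mice, and 21.4% and 21.9% in KO mice. Hif1a, whose product acts on Bnip3 and Bnip3l, rose by 0.78 and 0.52, and Mtor, the kinase that restrains ULK1, by 0.60 and 0.39. Epas1, which encodes another hypoxia-inducible factor and was looked at after its values were seen, went the other way. Its log2 fold change was -0.23 in control (adjusted p = 0.113) and -0.39 in KO mice (adjusted p = 0.00634). Atf4, a stress transcription factor with autophagy genes among its known targets, rose by 2.30 in control and 1.88 in KO mice. At 4°C Atf4 was lower in KO mice by 0.66 on the log2 scale (adjusted p = 0.0151), the only gene of the 120 called by genotype at that temperature, where 13 had an unadjusted p under 0.05. At RT Atf4 differed by -0.25 between KO and control mice, which limma did not call (adjusted p = 0.94). For Atf4 all 6 KO mice at 4°C lay below every control mouse at 4°C. The call at 4°C held with edgeR (adjusted p = 0.014) and DESeq2 (adjusted p = 6.38e-05). Dropping 1 mouse at a time, limma returned adjusted p values of 0.00758 to 0.05. When the mice at RT were left out of the fit, the difference of Atf4 was by construction the same. That fit held fewer mice and gave adjusted p = 0.243. Without the muscle-rich mice, which left 2 control mice at 4°C, the difference was -0.59 with adjusted p = 0.37. At RT 0 of the 120 were called by genotype and 8 had an unadjusted p under 0.05. For the difference between the cold effects these counts were 0 and 7, and limma did not call Atf4 for it. The share of all genes at an unadjusted p under 0.05 was not counted. The 13, 8 and 7 genes are therefore no result about the lists.

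Within groups, the 9 genes did not move as a block. Over the 36 pairs, Pearson's r of deviations from the group means in 23 mice was positive in 18, with a median of 0.006. The highest was between Sqstm1 and Map1lc3b (0.62), and Sqstm1 also went with Gabarapl1 (0.54) and Bnip3 (0.52). The lowest was between Map1lc3a and Bnip3 (-0.49). These mice share groups and differ in depth and muscle content. Without control 4°C replicate 1, 17 of the 36 values moved by over 0.2, and those just named became 0.53, 0.41, 0.23 and -0.18.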

How the data were processed

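The authors aligned paired reads of 25 bases from Smart-seq2 libraries to mm10 (GENCODE M7) with STAR version 2.4.0j and used HTSeq to assign reads with a single mapping position to the exons of genes, on whichever strand they lay. Stretches identical to a pseudogene or paralog therefore yield no reads. As signal, the authors deposited normalized counts of 14651 genes, each gene's reads divided by the DESeq2 size factor of the sample. By the recovered reads, every gene reached 9 in 6 samples or more. The authors also deposited the fold changes and p-values of their own comparisons, which were not used. Columns were matched to the 23 samples by name, and 0 columns of per-sample values were left out. In every library 100% of values were whole multiples (tolerance 0.01) of the value of 1 read, which returned the reads, between 7129271 and 21006347 a mouse. Read numbers speak to counting error only. Replicates were separate mice, and none of 55 pairs within groups came within sampling noise (chi-square per degree of freedom 9.42 to 68.9).

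The test was limma (version 3.58.1, R version 4.3.3) on log2(normalized count + 1), without a filter on low values, with 4 group means and a variance trend in 1 fit of all mice, and genes were called at a Benjamini-Hochberg adjusted p under 0.05 over all genes. Fold changes on this scale understate those of low genes. edgeR's quasi-likelihood test (version 4.0.16) and DESeq2 (version 1.42.0) on the recovered reads were alternatives, and called 6780 and 6875 genes by cold in control mice, 6501 and 6618 by cold in KO mice, 7 and 20 by genotype at RT, 6 and 23 by genotype at 4°C and 0 and 28 for the difference between the cold effects. Further alternatives were a pseudocount of 0.5 or 10, a mean normalized count of at least 50, scaling to the 75th percentile, only the compared groups, a replicate block and each mouse left out. The fit was tested on simulated counts. Lengths, overlaps and positions came from GENCODE M21 (GRCm38) and promoters from RefSeq.

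The 9 genes and all lists were chosen with earlier results of these data known. Named by rule were the 9 genes, Mcu and Ucp1, and for each of the 9 the gene most like it. Each list added up to 3 genes higher and 3 lower at 4°C. These had the smallest p in control mice among those called in the same direction in both genotypes. Gabarap, Gabarapl2, Rb1cc1 and Epas1 were named outside this rule, after their values were seen. Calcoco2 was not matched in the table. As deposited, 19 symbols had been turned into dates, and those genes were tested but are not named. Of 7 lymphocyte markers 2 were matched, of which 0 rose, with 0 lower in control and 1 lower in KO mice at 4°C. Of 12 skeletal muscle markers 0 were called by cold or genotype, and of 8 brown adipocyte markers 4 rose and 3 fell with cold in control and 3 rose and 1 fell in KO mice. Python version 3.11.15 was used with pandas version 2.3.3 for the tables and matplotlib version 3.10.9 for the plots.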

Additional observations from a re-analysis of the deposited data

Results flagged for a closer look

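In 36 combinations of gene and group, the highest and the lowest mouse were compared with the nearest of the others by Dixon's ratio at its 95% critical value, which chance passes in about 1 of 20 groups. A mouse stood apart in 5 of the 36, always as the highest. Of these, 3 were control 4°C replicate 1, with a normalized count of 6600.3 for Bnip3 (next 3137.5), 11768.4 for Sqstm1 (next 9026.8) and 5542.4 for Gabarapl1 (next 4309.2). This mouse had the fewest reads of all, 7129271. KO RT replicate 4 had 7309.6 for Sqstm1 against 5243.8 in the next mouse, with a muscle marker sum of 44480. KO 4°C replicate 1 had 4539.5 for Map1lc3b against 3842.2 in the next, and it had the most reads, 21006347. What sets these mice apart was not tested.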

How the results depend on the processing

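Over the alternatives, the log2 fold changes of the 9 genes were called as reported in 1439 cases, gained a call in 18 and lost one in 19. All 19 losses were Bnip3 by cold in KO mice, and no called value turned its sign. Uncalled values did so in 27 of 1311 cases, 7 of them Bnip3 by cold in control mice. Genes called lower with cold were 0 of 9 in control mice but 5 with scaling to the 75th percentile (Map1lc3b, Ulk1, Becn1, Bnip3l and Pink1). That scaling moved the median of all genes from -0.02 to -0.13 on the log2 scale in control and from -0.02 to -0.07 in KO mice, and the share of calls that were higher from 48.5% to 38.2% and from 49.4% to 44.1%. In KO mice 1 of 9, Pink1, was called lower with that scaling, with only the 2 compared groups and with a replicate block. With the replicate number as a block Pink1 had -0.33 with adjusted p = 0.0361. The deviations of same-numbered mice had mean r -0.095 for cold in KO, -0.029 for cold in control and -0.035 for genotype at RT. For genotype at 4°C the 5 pairs were all positive (0.042 to 0.218, mean 0.121), with 2 over 0.1 and 2 mice closest to their own number. The mice were taken as sharing only a number, since not every pair passed 0.1. The block gave 6610, 6376, 7, 7 and 0 calls over all genes, against 6735, 6349, 7, 11 and 0, and changed the call of none of the other 8 genes. Both muscle alternatives, and leaving out control 4°C replicate 1 from the correlations, were chosen after seeing the data. Without the 8 muscle-rich mice 1 of 9 (Pink1, -0.55, adjusted p = 0.034) and 12 of the 120 other pathway genes (21 as reported) were lower with cold in control, and Atf4 was no longer called by genotype at 4°C (0 of 120), nor was it with only the 2 compared groups (0 of 120). With each mouse left out in turn, 2 to 3 of 9 were higher with cold in either genotype, 0 to 2 lower in control and 0 to 1 in KO mice, and 0 to 1 were called by genotype at 4°C. Of the 120, 60 to 63 and 57 to 61 were then higher and 18 to 26 and 14 to 20 lower in control and KO mice, and 1 by genotype at 4°C. Where these counts moved, the cause was not tested. A filter on low values and pseudocounts of 0.5 and 10 changed no call of the 9.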

Other observations

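For each of the 9 genes, the gene that went with it most closely was found among 9530 genes with a mean normalized count of at least 50, by Pearson's r of deviations from the group means over 23 mice. These values describe the mice only and carry no p, since the best of many was taken and the mice share depth and dissection. Pink1 went most with Mbd3 (r = 0.87), a subunit of a chromatin remodelling complex, and Map1lc3a with Atad3a (0.89), a mitochondrial membrane ATPase. Sqstm1 went with Dctn4 (0.85), a dynactin subunit, Gabarapl1 with Zc3hav1 (0.84), an antiviral zinc finger protein, and Bnip3 with Gdi2 (0.83), which binds Rab GTPases. Becn1 went with Alad (0.77), a heme synthesis enzyme, Map1lc3b with Eif4ebp1 (0.80), a translation repressor, Bnip3l with Zfp27 (0.80), and Ulk1 with Drosha (0.74), the nuclease that starts miRNA processing. Several of these genes shifted with cold in a way their partner did not. The mean normalized count of Eif4ebp1 in control mice was 3748 ± 485 (SD) at RT and 1796 ± 238 at 4°C, while Map1lc3b had 3332 ± 349 and 3053 ± 462. For Alad it was 1342 ± 301 at RT and 490.0 ± 133 at 4°C, while Becn1 had 415 ± 19.2 and 392 ± 31.2.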
